A study of Macaca mulatta with 102 samples.

Results

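The chemokine and egress receptors described here are 8 genes, CCR7, CXCR3, CXCR6, CCR3, CCR4, CCR6, CX3CR1 and S1PR5, followed in CD3 T cells of rhesus macaques after transplantation of hematopoietic cells. They were represented by the probe sets that the platform annotation pairs with these genes alone, 10 of the 52865 on the array, for 8 of the 14133 genes with such a probe set. S1PR5 has 3 probe sets and each other gene has 1. All 10 passed the filter on low values, and where a gene had several, the probe set with the highest mean stood for it.

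Chemokine receptors are G protein-coupled receptors that steer T cells along gradients of chemokines. CCR7 brings naive and central memory cells into lymph nodes, whereas CXCR3, CXCR6, CCR4, CCR6 and CX3CR1 are carried by effector or memory subsets that enter inflamed or barrier tissues. S1PR5 binds sphingosine-1-phosphate, the lipid whose gradient lets lymphocytes leave tissue for blood. In graft-versus-host disease, donor T cells attack the skin, gut and liver of the recipient, and these receptors are studied there because they set where T cells go.

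RNA of T cells sorted from blood was measured on 102 arrays from 66 animals in 16 groups. The animals had received donor (allogeneic) or their own (autologous) cells, or were healthy and untransplanted. Autologous recipients formed Auto.D14 (n = 3, day 14), Auto.D36 (n = 4, days 30 to 36) and Auto.D100 (n = 4, day 100). Donor-cell recipients sampled on days 6 to 12 without prophylaxis were NoRx.F (n = 4). Siro.F (n = 4), sampled on days 12 to 24, received sirolimus, which blocks mTOR. The 3 animals of Tac.Mtx.D14 (day 14) and the 3 of Tac.Mtx.F (days 26 to 67) received tacrolimus plus methotrexate. The label Bela.Siro, read as belatacept, which blocks CD28 costimulation, with sirolimus, covered Bela.Siro.D14 (n = 3, day 14), Bela.Siro.D30 (n = 2, day 30) and Bela.Siro.F (n = 7, days 26 to 105). Blockade of OX40 ligand by the antibody KY1005, without another drug, made up KY1005.D14 (days 14 to 16, 2 animals) and KY1005.F (days 16 to 23, 3 animals). With sirolimus it gave KY1005.Siro.D14 (n = 5, day 14), KY1005.Siro.D28 (n = 5, day 28) and KY1005.Siro.F (n = 4, days 97 to 106). Drug names are readings of short labels, and names ending in F are kept as labelled. Healthy.Control held 46 arrays of 45 animals. Animals recur, and 11 gave a healthy array and 18 arrays after transplant.

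Values are log2 RMA signals, n counts animals, and group levels are means ± SD. Differences are log2 estimates ± SE from a limma fit of all groups with the labelled batch, and a difference is called where its Benjamini-Hochberg adjusted p over all 31711 probe sets tested is under 0.05. Array medians lay between 5.13 and 5.35, and the number of arrays limits the precision. Of the 12 core T cell genes looked for, 7 were tested, among them CD5, CD8A and TRAT1, and the mean signal of the 7 ran over arrays from 10.14 to 10.20 in Auto.D14 and 9.43 to 10.08 in KY1005.Siro.F, the lowest of the transplant groups, against 9.75 to 10.44 in healthy controls. Arrays R.201 and R.202 of Auto.D14 had log2 ratios of 3' to 5' actin control signal of 3.30 and 3.38, a sign of degraded RNA, against 0.44 in R.200, and 4 healthy arrays also exceeded 2.5. The KY1005 groups lie in 1 batch with 7 healthy arrays, the Tac.Mtx and Bela.Siro groups in another with 13, and NoRx.F in other batches. Regimen, day and batch therefore cannot be fully told apart between them. In T cells sorted in bulk, fewer cells of a type and less RNA per cell cannot be told apart.

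Against healthy controls, 18 of 120 gene and group combinations were called, spread over 8 of the 15 transplant groups. NoRx.F had the most, with 5 of the 8 genes called, where 27.5% of all probe sets were called. Bela.Siro.F had 4, all lower, against a background of 10%. Auto.D14, Auto.D36 and Auto.D100 had 2 each, where 19.4%, 9.26% and 2.48% of probe sets were called. Siro.F, KY1005.Siro.D28 and KY1005.Siro.F had 1 each, against 8.91%, 12.1% and 6.84%. None of the 8 was called in Tac.Mtx.D14 (0.88% of probe sets called), Tac.Mtx.F (14.3%), Bela.Siro.D14 (2.68%) or Bela.Siro.D30 (1.14%). None was called in KY1005.D14 (0.202%), KY1005.F (3.28%) or KY1005.Siro.D14 (4.15%). The median difference of the 8 genes was -0.21 in NoRx.F, 0.71 in Auto.D36, 0.77 in Auto.D100 and -0.79 in Bela.Siro.F, and over all probe sets it lay between -0.01 and 0.01. These comparisons share their healthy controls. All 18 calls were also made within the batches that hold the group, where p-values were adjusted in that smaller fit.

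**Figure D1:**
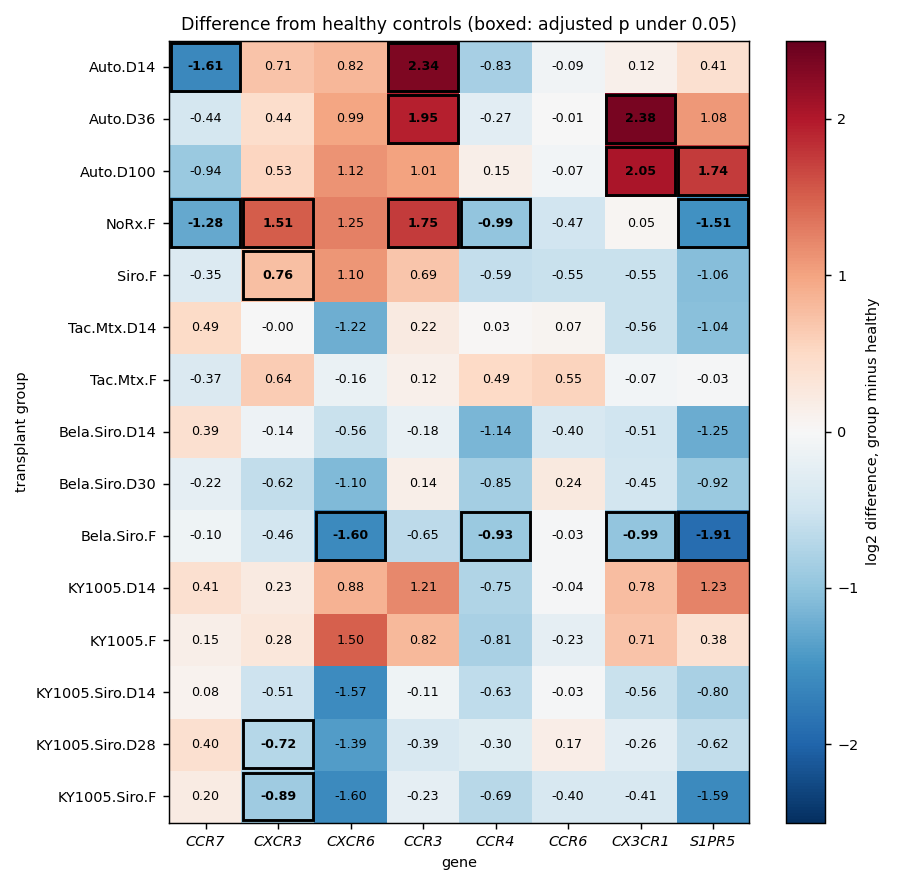
Log2 difference of each of the 8 genes (columns) in each transplant group (rows) from healthy controls, with red for higher and blue for lower in the transplant group and a box where the adjusted p is under 0.05. The boxed rises lie in CCR3, CX3CR1 and S1PR5 of autologous recipients, in CXCR3 and CCR3 of NoRx.F and in CXCR3 of Siro.F, and 4 of the boxed falls lie in Bela.Siro.F.

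CCR7, through which T cells home to lymph nodes, fell in recipients without prophylaxis and at day 14 after autologous transplantation. In NoRx.F its signal was 8.64 (R.50), 9.13 (R.51), 8.32 (R.52) and 8.62 (R.53), against a lowest, median and highest of 8.32, 9.93 and 11.17 in healthy controls. In Auto.D14 it was 8.96 (R.200), 9.11 (R.201) and 8.72 (R.202). All 7 of these arrays lay below the healthy median, and R.52 lay just below the whole healthy range. The differences were -1.28 ± 0.37 (adjusted p = 0.0048) in NoRx.F and -1.61 ± 0.46 (adjusted p = 0.0106) in Auto.D14. The NoRx.F call held under every alternative run. Beside it, in NoRx.F, where 27.5% of probe sets were called, CD8A and CD8B rose by 0.73 ± 0.16 (adjusted p = 0.000153) and 1.12 ± 0.26 (adjusted p = 0.00045). TRAT1 fell by 1.47 ± 0.21 (adjusted p = 4.39e-08), and all 10 cell cycle genes tested rose, MKI67 by 3.30 ± 0.37 (adjusted p = 1.56e-11). Their part in the CCR7 result was not tested. The Auto.D14 call was lost without a batch term, at -0.997 (adjusted p = 0.0553), with the actin ratio as a covariate, at -0.90 (adjusted p = 0.24), and without R.202 (adjusted p = 0.0955). Without both arrays of high actin ratio it was -1.58 (adjusted p = 0.505), from 1 array assumed to vary like the other groups. The healthy arrays appeared already adjusted for batch when deposited.

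In the other groups CCR7 stayed uncalled. Its group means ran downward over 10.28 ± 0.47 in Tac.Mtx.D14, 10.20 ± 0.02 in KY1005.D14, 10.19 ± 0.59 in Bela.Siro.D14, 10.18 ± 0.23 in KY1005.Siro.D28 and 9.99 ± 0.32 in KY1005.Siro.F. Next came 9.94 ± 0.85 in KY1005.F, 9.87 ± 0.66 in KY1005.Siro.D14, 9.69 ± 0.35 in Bela.Siro.F, 9.61 ± 0.54 in Siro.F and 9.58 ± 0.59 in Bela.Siro.D30. The lowest were 9.46 ± 0.69 in Auto.D36, 9.45 ± 0.59 in Auto.D100, 9.43 ± 0.66 in Tac.Mtx.F, 8.93 ± 0.19 in Auto.D14 and 8.68 ± 0.34 in NoRx.F, while healthy controls averaged 9.93 ± 0.73, between KY1005.F and KY1005.Siro.D14. Every neighbouring pair of groups in that order overlapped in range. Of the 3 autologous animals followed through, R.201 and R.202 had CCR7 at 9.98 and 9.69 in Auto.D36, above their Auto.D14 values, while R.200 had 8.44, below its own.

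**Figure D2:**
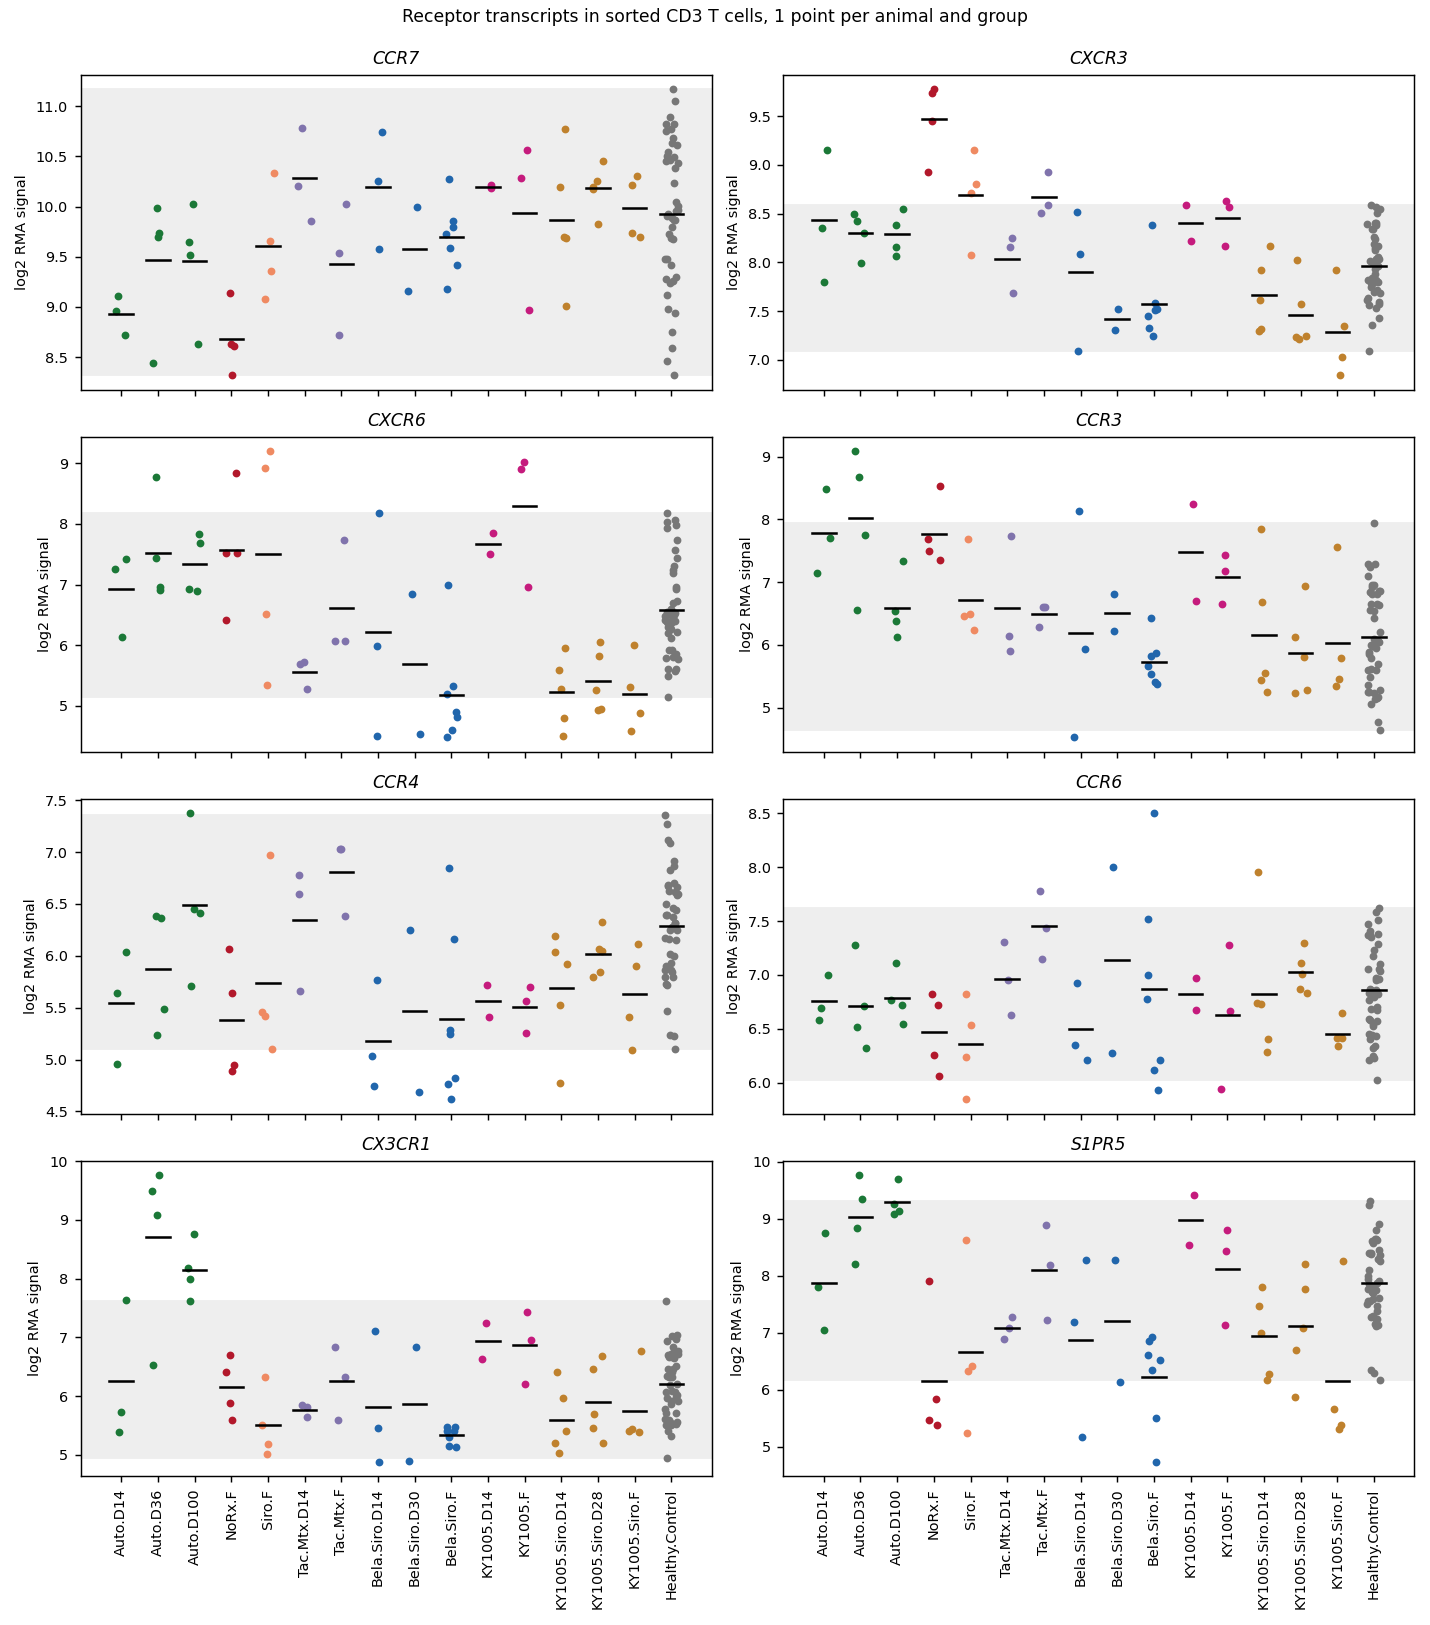
Log2 RMA signal (vertical axes) of the 8 receptor genes in the 15 transplant groups and in healthy controls at the right, with 1 point per animal, a black bar for the group mean and grey shading for the healthy range. All 4 NoRx.F points of CXCR3 and all 4 Auto.D100 points of CX3CR1 lie above the shading.

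CXCR3, the receptor of the interferon-induced chemokines CXCL9, CXCL10 and CXCL11 on type 1 effector T cells, was higher in NoRx.F and Siro.F and lower in KY1005.Siro.D28 and KY1005.Siro.F. In NoRx.F its signal was 9.74 (R.50), 9.45 (R.51), 9.78 (R.52) and 8.93 (R.53), and in Siro.F 8.08 (R.13), 8.81 (R.16), 8.71 (R.17) and 9.15 (R.18). Healthy controls had a lowest, median and highest of 7.09, 7.96 and 8.59. The NoRx.F arrays did not overlap the healthy ones, and 3 of the 4 Siro.F arrays lay above them. CXCR3 rose by 1.51 ± 0.22 (adjusted p = 3.41e-08) in NoRx.F, a call that held under every alternative run, and by 0.76 ± 0.21 (adjusted p = 0.0111) in Siro.F. Without R.18, the highest array of Siro.F, the second difference was 0.55 (adjusted p = 0.197). Tac.Mtx.F had a CXCR3 difference of 0.64, uncalled in the main fit. It was called under some alternatives and not under others, among them no batch term, at 0.71 (adjusted p = 0.0189), and array weights, at 0.63 (adjusted p = 0.0105), where it was called.

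Under KY1005 with sirolimus, CXCR3 was 7.21, 8.02, 7.57, 7.25 and 7.23 in the 5 animals of KY1005.Siro.D28 (R.217 to R.221) and 7.92 (R.217), 6.84 (R.219), 7.03 (R.220) and 7.35 (R.221) in KY1005.Siro.F. Of these 9 arrays, 2 of KY1005.Siro.F lay below the healthy range, and the other 7 lay inside it. The falls were -0.72 ± 0.22 (adjusted p = 0.0193) and -0.89 ± 0.23 (adjusted p = 0.00967), whereas KY1005.Siro.D14 had -0.51 ± 0.22 (adjusted p = 0.167). The day 28 call was lost without any of R.217, R.220 or R.221, and that of KY1005.Siro.F without R.219 or R.220. Leaving out the 6 arrays of high actin ratio ended both (adjusted p = 0.142 and adjusted p = 0.057). Beside the fall in KY1005.Siro.F, 3 of 7 core T cell genes were lower there, and 5 of 10 monocyte and myeloid, 4 of 5 neutrophil and 2 of 7 erythroid and platelet genes were higher. In that group 6.84% of all probe sets were called. The mean signal of the neutrophil genes ran from 4.45 to 9.72 in KY1005.Siro.F, against 4.54 to 5.73 in healthy controls, and that of the erythroid and platelet genes from 7.83 to 9.44, against 6.00 to 7.80. With the myeloid score as a covariate CXCR3 had -0.84 (adjusted p = 0.0389), and the part of the other lists was not tested. Bela.Siro.F, whose array of R.67 at 8.39 stood apart from the other 6 at 7.25 to 7.58, had -0.46 ± 0.17 (adjusted p = 0.076).

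Over the transplant groups, CXCR3 averaged 9.47 ± 0.39 in NoRx.F, 8.69 ± 0.45 in Siro.F, 8.67 ± 0.22 in Tac.Mtx.F, 8.46 ± 0.26 in KY1005.F and 8.44 ± 0.68 in Auto.D14. It averaged 8.40 ± 0.27 in KY1005.D14, 8.30 ± 0.22 in Auto.D36, 8.29 ± 0.22 in Auto.D100, 8.03 ± 0.30 in Tac.Mtx.D14 and 7.90 ± 0.73 in Bela.Siro.D14. At the low end stood 7.66 ± 0.38 in KY1005.Siro.D14, 7.58 ± 0.38 in Bela.Siro.F, 7.46 ± 0.35 in KY1005.Siro.D28, 7.42 ± 0.15 in Bela.Siro.D30 and 7.29 ± 0.47 in KY1005.Siro.F. Healthy controls, at 7.96 ± 0.35, lay between Tac.Mtx.D14 and Bela.Siro.D14, and all neighbouring pairs overlapped in range.

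CXCR6, the receptor of CXCL16 on tissue-resident and liver-homing effector T cells, fell in Bela.Siro.F and had low levels, not called, under KY1005 with sirolimus. In Bela.Siro.F its signal had a lowest, median and highest of 4.48, 4.89 and 6.99, against 5.14, 6.48 and 8.18 in healthy controls. Of the 7 arrays, 4 lay below the healthy range and R.38, at 6.99, above the healthy median. The fall was -1.60 ± 0.41 (adjusted p = 0.00512) and was kept without any single array. With the myeloid score, the mean of 10 monocyte and myeloid genes against their healthy mean, as a covariate it was -1.31 (adjusted p = 0.0745).

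The 3 KY1005.Siro groups had similar estimates that were not called. CXCR6 was 5.96, 5.28, 4.50, 4.81 and 5.60 in the 5 animals of KY1005.Siro.D14, 6.06, 5.83, 4.95, 4.94 and 5.26 in KY1005.Siro.D28 and 6.01, 4.89, 4.59 and 5.32 in KY1005.Siro.F. In each group 2 arrays lay below the healthy range. The differences were -1.57 ± 0.51 (adjusted p = 0.0582), -1.39 ± 0.51 (adjusted p = 0.0586) and -1.60 ± 0.54 (adjusted p = 0.0572). Within their own batch the first 2 were called (adjusted p = 0.0362 and adjusted p = 0.0382), and without a batch term all 3 were (adjusted p between 0.0263 and 0.0429). CXCR6 under KY1005 alone was 8.91 (R.206), 9.01 (R.211) and 6.96 (R.212) in KY1005.F, with 2 of 3 arrays above the healthy range and adjusted p = 0.132.

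Means of CXCR6 covered a span of 3.11 on the log2 scale, with 8.30 ± 1.15 in KY1005.F, 7.67 ± 0.24 in KY1005.D14, 7.57 ± 0.99 in NoRx.F, 7.52 ± 0.87 in Auto.D36 and 7.50 ± 1.87 in Siro.F. The middle held 7.34 ± 0.50 in Auto.D100, 6.94 ± 0.70 in Auto.D14, 6.62 ± 0.96 in Tac.Mtx.F, 6.22 ± 1.84 in Bela.Siro.D14 and 5.69 ± 1.63 in Bela.Siro.D30. The lowest were 5.56 ± 0.25 in Tac.Mtx.D14, 5.41 ± 0.51 in KY1005.Siro.D28, 5.23 ± 0.59 in KY1005.Siro.D14, 5.20 ± 0.62 in KY1005.Siro.F and 5.19 ± 0.85 in Bela.Siro.F. Healthy controls averaged 6.58 ± 0.76, between Tac.Mtx.F and Bela.Siro.D14, and neighbours overlapped throughout. Siro.F was the most divided group, with 5.35 (R.13), 8.92 (R.16), 6.51 (R.17) and 9.20 (R.18).

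CCR3, the eotaxin receptor of eosinophils, basophils and some type 2 T cells, rose early after autologous transplantation and without prophylaxis. Its signal was 7.70 (R.200), 7.15 (R.201) and 8.48 (R.202) in Auto.D14, 7.75 (R.62), 6.55 (R.200), 9.09 (R.201) and 8.67 (R.202) in Auto.D36 and 7.50 (R.50), 7.35 (R.51), 7.68 (R.52) and 8.54 (R.53) in NoRx.F. Healthy controls had a lowest, median and highest of 4.65, 6.04 and 7.94. All 11 of these arrays lay above the healthy median, and 4 lay above the healthy range. The rises were 2.34 ± 0.59 (adjusted p = 0.00439), 1.95 ± 0.47 (adjusted p = 0.00387) and 1.75 ± 0.47 (adjusted p = 0.00264). Without a batch term that of Auto.D14 was smaller, at 1.66, and still called. Each of the called rises was lost without 1 array, that of R.202 in Auto.D14 (adjusted p = 0.0863), R.201 in Auto.D36 (adjusted p = 0.0523) and R.53 in NoRx.F (adjusted p = 0.0605). Without the arrays of high actin ratio Auto.D14 had 2.27 (adjusted p = 0.501), from 1 array assumed to vary like the other groups, and with the actin ratio as a covariate it had 2.34 (adjusted p = 0.0149).

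Markers of eosinophils and basophils were looked for beside CCR3. Of 9 such genes, only HDC, which makes histamine, was tested, and it was called in none of the 15 groups. HDC ranged over arrays from 4.70 to 5.17 in Auto.D14, 4.71 to 5.04 in Auto.D36 and 4.83 to 5.22 in NoRx.F, against 4.55 to 5.55 in healthy controls. IL5RA and MS4A2, receptor genes of these cells, stayed below 5.21, the median of all values, in every array, with highest values of 4.73 and 4.35. CPA3 and FCER1A reached it in 1 array each, and SIGLEC8, CLC, PRG2 and EPX have no probe set of their own.

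By group, CCR3 averaged 8.02 ± 1.12 in Auto.D36, 7.78 ± 0.67 in Auto.D14, 7.77 ± 0.53 in NoRx.F, 7.48 ± 1.09 in KY1005.D14 and 7.08 ± 0.39 in KY1005.F. Lower means were 6.72 ± 0.66 in Siro.F, 6.59 ± 0.52 in Auto.D100, 6.59 ± 0.99 in Tac.Mtx.D14, 6.51 ± 0.41 in Bela.Siro.D30 and 6.50 ± 0.19 in Tac.Mtx.F. The remaining ones were 6.19 ± 1.81 in Bela.Siro.D14, 6.15 ± 1.10 in KY1005.Siro.D14, 6.03 ± 1.03 in KY1005.Siro.F, 5.88 ± 0.70 in KY1005.Siro.D28 and 5.73 ± 0.36 in Bela.Siro.F, with healthy controls at 6.12 ± 0.79, below KY1005.Siro.D14. No neighbouring pair was separated in range. Over the 18 arrays of 11 animals with a healthy array of their own, CCR3 was higher than that healthy array in 15 and lower in 3.

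CCR4, the receptor of CCL17 and CCL22 on type 2, regulatory and skin-homing T cells, fell in NoRx.F and in Bela.Siro.F. Its signal was 5.64 (R.50), 6.07 (R.51), 4.89 (R.52) and 4.95 (R.53) in NoRx.F, and had a lowest, median and highest of 4.62, 5.24 and 6.85 in Bela.Siro.F, against 5.11, 6.32 and 7.36 in healthy controls. Of these arrays, 2 of 4 and 3 of 7 lay below the healthy range, while R.38 of Bela.Siro.F, at 6.85, lay above the healthy median. The falls were -0.99 ± 0.34 (adjusted p = 0.0187) and -0.93 ± 0.27 (adjusted p = 0.0144). The NoRx.F call was lost without R.52 or R.53, and that of Bela.Siro.F without R.49, R.66 or R.70. With the myeloid score as a covariate neither was called (adjusted p = 0.0543 and adjusted p = 0.138). The estimate for Bela.Siro.D14 was -1.14 ± 0.36 (adjusted p = 0.0666), from 3 arrays at 5.77, 4.75 and 5.03.

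Group means of CCR4 were 6.81 ± 0.37 in Tac.Mtx.F, 6.49 ± 0.68 in Auto.D100, 6.35 ± 0.60 in Tac.Mtx.D14, 6.01 ± 0.21 in KY1005.Siro.D28 and 5.87 ± 0.59 in Auto.D36. They were 5.74 ± 0.84 in Siro.F, 5.69 ± 0.57 in KY1005.Siro.D14, 5.63 ± 0.47 in KY1005.Siro.F, 5.56 ± 0.22 in KY1005.D14 and 5.55 ± 0.55 in Auto.D14. The lowest 5 were 5.51 ± 0.23 in KY1005.F, 5.46 ± 1.10 in Bela.Siro.D30, 5.39 ± 0.82 in Bela.Siro.F, 5.39 ± 0.57 in NoRx.F and 5.18 ± 0.53 in Bela.Siro.D14. Healthy controls averaged 6.29 ± 0.52, below Tac.Mtx.D14 and above the other 12 groups, and every neighbouring pair overlapped. Beside their own healthy array, 14 of the same 18 arrays of 11 animals, which are not independent, had lower CCR4.

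CCR6, the receptor of CCL20 on Th17 cells and gut-homing memory T cells, was called in no group. Its group means spanned 1.09, the narrowest span of the 8 genes, and its 45 healthy values had a lowest, median and highest of 6.03, 6.84 and 7.62. The estimates ran from -0.55 ± 0.27 (adjusted p = 0.218) in Siro.F, with a 95% interval of -1.09 to -0.01, to 0.55 ± 0.31 (adjusted p = 0.239) in Tac.Mtx.F, with an interval of -0.06 to 1.17. Both groups overlapped the healthy range, with 1 array of Tac.Mtx.F above it and 1 of Siro.F below it. In Tac.Mtx.F the signal was 7.14 (R.19), 7.78 (R.20) and 7.43 (R.21), and in Siro.F 5.84 (R.13), 6.53 (R.16), 6.83 (R.17) and 6.24 (R.18). The array of R.38 in Bela.Siro.F had the highest CCR6 of all, 8.50, and 8.00 in Bela.Siro.D30.

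Means of CCR6 ran in the order 7.45 ± 0.32 in Tac.Mtx.F, 7.14 ± 1.22 in Bela.Siro.D30, 7.02 ± 0.19 in KY1005.Siro.D28, 6.96 ± 0.34 in Tac.Mtx.D14 and 6.86 ± 0.91 in Bela.Siro.F. Then came 6.82 ± 0.67 in KY1005.Siro.D14, 6.82 ± 0.21 in KY1005.D14, 6.78 ± 0.24 in Auto.D100, 6.76 ± 0.22 in Auto.D14 and 6.71 ± 0.41 in Auto.D36. The last were 6.62 ± 0.67 in KY1005.F, 6.50 ± 0.38 in Bela.Siro.D14, 6.47 ± 0.36 in NoRx.F, 6.45 ± 0.13 in KY1005.Siro.F and 6.36 ± 0.42 in Siro.F. Healthy controls, at 6.86 ± 0.42, lay beside Bela.Siro.F, and neighbours overlapped in all 15 pairs. In 15 of the 18 arrays with a healthy array of the same animal, CCR6 was below that array, and the median change over all 18 was -0.34. These are the arrays of 11 animals counted for CCR3, which are not independent and mix regimens.

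CX3CR1, the fractalkine receptor of cytotoxic effector memory T cells and of monocytes, had the largest rises of the 8 genes in Auto.D36 and Auto.D100. Its signal was 6.53 (R.62), 9.76 (R.200), 9.49 (R.201) and 9.09 (R.202) in Auto.D36 and 7.63 (R.60), 8.76 (R.200), 7.99 (R.201) and 8.18 (R.202) in Auto.D100, against a lowest, median and highest of 4.95, 6.18 and 7.61 in healthy controls. Auto.D14 had 7.64 (R.200), 5.39 (R.201) and 5.73 (R.202). All Auto.D100 arrays lay above the healthy range, as did 3 of 4 of Auto.D36, the exception being R.62, sampled at day 30. The rises were 2.38 ± 0.38 (adjusted p = 5.16e-05) and 2.05 ± 0.40 (adjusted p = 0.00256), and both were kept under every alternative run and without any single array. Auto.D14 had 0.12 ± 0.48 (adjusted p = 0.885).

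Monocyte genes were read beside CX3CR1, since monocytes express it. The myeloid score was 3.41 in R.62 of Auto.D36, the array with the lowest CX3CR1 of that group, and -0.43, 0.41 and 0.81 in R.200, R.201 and R.202. In Auto.D100 it ran from -1.04 to 0.13, against -1.25 to 1.59 in healthy controls. Of the 10 genes of that list none was called there, where 2.48% of probe sets were called. In Auto.D36, where 9.26% of probe sets were called, S100A9 rose by 3.00 ± 0.99 (adjusted p = 0.0399) and FCN1 by 2.33 ± 0.79 (adjusted p = 0.0454), 2 of the 10. With the score as a covariate CX3CR1 had differences of 2.74 (adjusted p = 2.33e-06) in Auto.D36 and 1.87 (adjusted p = 0.00375) in Auto.D100, both called. Of 7 NK cell genes none was called in either group.

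In Bela.Siro.F, CX3CR1 was low and even, with a lowest, median and highest of 5.13, 5.40 and 5.48 in 7 animals. All 7 lay inside the healthy range and below its median. The fall was -0.99 ± 0.31 (adjusted p = 0.0261), and it was lost without R.67 (adjusted p = 0.0544). Of the 10 monocyte and myeloid genes 4 rose in Bela.Siro.F, where 10% of probe sets were called. S100A9 rose by 5.01 ± 0.79 (adjusted p = 3.03e-06), S100A8 by 4.59 ± 0.77 (adjusted p = 1.11e-05) and VCAN by 2.73 ± 0.74 (adjusted p = 0.00858). With the myeloid score as a covariate the difference of CX3CR1 was -0.51 (adjusted p = 0.446). The score itself ranged over arrays from 0.57 to 2.88 in Bela.Siro.F, against -1.25 to 1.59 in healthy controls.

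Levels of CX3CR1 by group were 8.72 ± 1.49 in Auto.D36, 8.14 ± 0.48 in Auto.D100, 6.94 ± 0.43 in KY1005.D14, 6.87 ± 0.62 in KY1005.F and 6.25 ± 1.21 in Auto.D14. The next were 6.25 ± 0.63 in Tac.Mtx.F, 6.15 ± 0.50 in NoRx.F, 5.90 ± 0.64 in KY1005.Siro.D28, 5.87 ± 1.37 in Bela.Siro.D30 and 5.81 ± 1.15 in Bela.Siro.D14. The lowest were 5.76 ± 0.11 in Tac.Mtx.D14, 5.75 ± 0.68 in KY1005.Siro.F, 5.60 ± 0.57 in KY1005.Siro.D14, 5.50 ± 0.58 in Siro.F and 5.34 ± 0.14 in Bela.Siro.F, and healthy controls averaged 6.20 ± 0.57, between Tac.Mtx.F and NoRx.F. Auto.D100 did not overlap KY1005.D14, the next group below it, which was the only such gap among the neighbouring pairs of the 8 genes.

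S1PR5, the sphingosine-1-phosphate receptor of NK cells and cytotoxic effector T cells, was low without prophylaxis and in Bela.Siro.F, and high in Auto.D100. Its signal was 5.48 (R.50), 5.83 (R.51), 5.39 (R.52) and 7.91 (R.53) in NoRx.F, and had a lowest, median and highest of 4.74, 6.52 and 6.93 in Bela.Siro.F. In Auto.D100 it was 9.14 (R.60), 9.70 (R.200), 9.08 (R.201) and 9.25 (R.202), and healthy controls had 6.17, 7.82 and 9.30. In NoRx.F 3 of 4 arrays lay below the healthy range and R.53 inside it, in Bela.Siro.F 2 of 7 lay below it, and in Auto.D100 1 of 4 lay above it. The differences were -1.51 ± 0.50 (adjusted p = 0.0162), -1.91 ± 0.40 (adjusted p = 0.000434) and 1.74 ± 0.52 (adjusted p = 0.0494). Auto.D36 had 1.08 ± 0.49 (adjusted p = 0.166).

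The 3 probe sets of S1PR5 did not give the same account. For NoRx.F the 2 others had differences of 0.11 ± 0.27 (adjusted p = 0.81) and 0.16 ± 0.13 (adjusted p = 0.418), and the mean of all 3 gave -0.41 (adjusted p = 0.262). For Bela.Siro.F they had -0.58 ± 0.21 (adjusted p = 0.0625) and -0.23 ± 0.11 (adjusted p = 0.152), and the mean of all 3 was called at -0.91 (adjusted p = 0.0019). For Auto.D100 all 3 were called, the others at 1.45 ± 0.28 (adjusted p = 0.00199) and 0.49 ± 0.14 (adjusted p = 0.0358). In Auto.D36 both others were called, at 1.34 ± 0.26 (adjusted p = 0.000489) and 0.63 ± 0.13 (adjusted p = 0.000797). The first of the 2 others had a healthy mean of 4.32 and reached 5.21, the level of the filter, on only 9 arrays, so it gives no support to the rises and could show little of a fall. Among the 3 probe sets, the falls in NoRx.F and in Bela.Siro.F were called in the leading one alone. That probe set also enters the mean called for Bela.Siro.F, so the mean is not separate support.

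The calls of the leading probe set differed in how they held. That of Auto.D100 was lost without any 1 of its 4 arrays and with the animal as a random replicate block at 1.68 (adjusted p = 0.0646), and that of NoRx.F without R.50 or R.52. With the myeloid score as a covariate NoRx.F had -1.10 (adjusted p = 0.0867), and leaving out R.53 moved the NoRx.F difference to -2.28. That of Bela.Siro.F was kept without any single array and with the myeloid score as a covariate, at -1.38 (adjusted p = 0.0343). NK cell markers were read in the same 2 groups. In each, 2 of 7 NK genes were lower, where 27.5% of all probe sets were called in NoRx.F and 10% in Bela.Siro.F. KLRF1, an activating NK receptor, fell by 2.79 ± 0.64 (adjusted p = 0.000326) in NoRx.F and by 1.90 ± 0.50 (adjusted p = 0.00752) in Bela.Siro.F. The mean signal of the 7 ran from 7.79 to 8.80 in NoRx.F and 7.56 to 8.60 in Bela.Siro.F, against 7.18 to 9.93 in healthy controls, and their part in the result was not tested.

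S1PR5 averaged 9.29 ± 0.28 in Auto.D100, 9.04 ± 0.67 in Auto.D36, 8.98 ± 0.62 in KY1005.D14, 8.12 ± 0.88 in KY1005.F and 8.10 ± 0.84 in Tac.Mtx.F. Below these stood 7.87 ± 0.86 in Auto.D14, 7.21 ± 1.52 in Bela.Siro.D30, 7.12 ± 0.91 in KY1005.Siro.D28, 7.08 ± 0.19 in Tac.Mtx.D14 and 6.94 ± 0.72 in KY1005.Siro.D14. At the bottom were 6.88 ± 1.57 in Bela.Siro.D14, 6.66 ± 1.42 in Siro.F, 6.21 ± 0.81 in Bela.Siro.F, 6.15 ± 1.41 in KY1005.Siro.F and 6.15 ± 1.19 in NoRx.F. Healthy controls averaged 7.87 ± 0.71, beside Auto.D14, and neighbouring groups overlapped in every pair. In KY1005.Siro.F the values were 8.26 (R.217), 5.67 (R.219), 5.38 (R.220) and 5.31 (R.221), with 3 of 4 below the healthy range and a difference of -1.59 ± 0.53 (adjusted p = 0.0503).

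**Figure D3:**
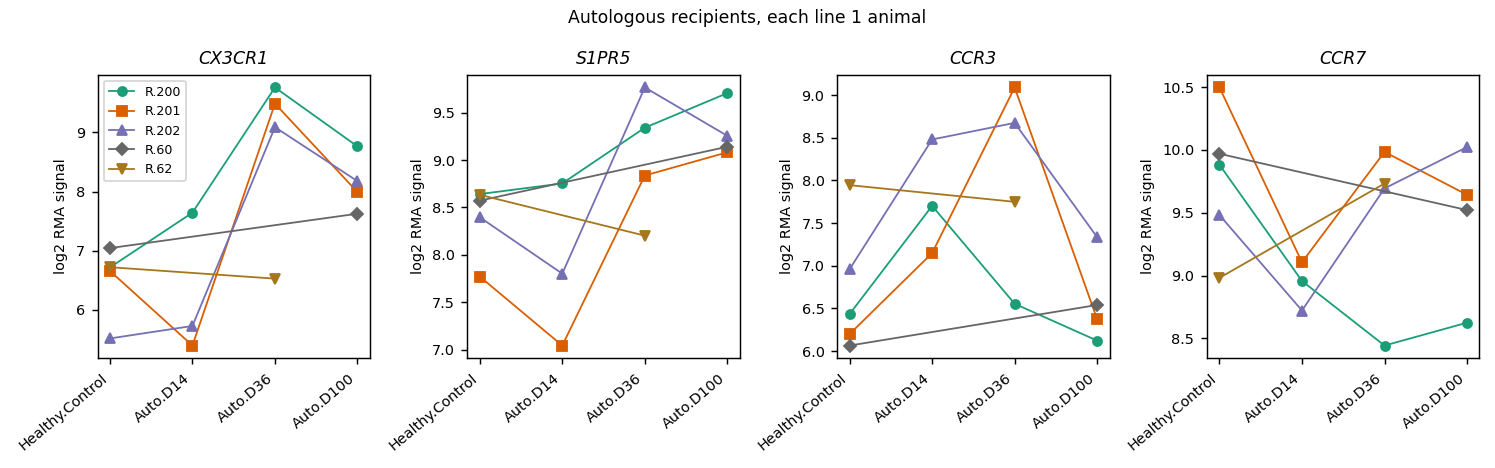
Log2 RMA signal of CX3CR1, S1PR5, CCR3 and CCR7 (vertical axes) in autologous recipients, from each animal's healthy array to days 14, 36 and 100 (horizontal axes), with 1 line per animal. CX3CR1 of R.200, R.201 and R.202 peaks in Auto.D36 and stays above each animal's healthy array in Auto.D100, while R.62, sampled at day 30, has no such peak.

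The time course after autologous transplantation can be read in R.200, R.201 and R.202, each sampled in Auto.D14, Auto.D36 and Auto.D100. CX3CR1 in Auto.D36 exceeded that in Auto.D14 by 2.12 (R.200), 4.10 (R.201) and 3.36 (R.202). These changes run between batches, with Auto.D14 in batch 5 and Auto.D36 of these animals in batch 4. The 2 larger ones start from the Auto.D14 arrays of high actin ratio. In Auto.D100, again in batch 5, CX3CR1 was below the Auto.D36 value in all 3. S1PR5 was higher in Auto.D100 than in Auto.D14 in all 3, by 0.95, 2.03 and 1.45. CCR3 in Auto.D100 was below Auto.D14 in all 3, with changes between -1.58 and -0.78. Among the 8 genes only CX3CR1 was called between Auto.D100 and Auto.D14, at 1.93 ± 0.51 (adjusted p = 0.0138), where 7.35% of probe sets were called. The call was lost without R.201 or R.202 of Auto.D14 or R.200 of Auto.D100. It was also lost with only the groups compared (adjusted p = 0.216), with the actin ratio as a covariate, at 1.01 (adjusted p = 0.625), and with the myeloid score (adjusted p = 0.0624). Without both R.201 and R.202 in Auto.D14, the arrays of high actin ratio, 1 array was left there and the difference was 0.54 (adjusted p = 1), and with the animal as a fixed replicate block in the autologous arrays alone it was 2.06 (adjusted p = 0.0789). S1PR5 had 1.34 ± 0.65 (adjusted p = 0.202) in its leading probe set, and CCR3 had -1.34 ± 0.62 (adjusted p = 0.173). The other S1PR5 probe sets had 1.71 ± 0.35 (adjusted p = 0.00422) and 0.51 ± 0.17 (adjusted p = 0.0523), the first of them mostly below the level of the filter. The leading probe set was called with array weights, at 1.66 (adjusted p = 0.0244). The mean of all S1PR5 probe sets was called at 1.19 (adjusted p = 0.0255), but it includes the probe set mostly below the level of the filter.

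Within KY1005.Siro none of the 8 genes was called between days. KY1005.Siro.D28 against KY1005.Siro.D14 called 0 of 8, where 0.00946% of probe sets were called, and KY1005.Siro.F against KY1005.Siro.D14 called 0 of 8, where 1.25% were. In KY1005.Siro.F against KY1005.Siro.D14, S1PR5 had -0.79 ± 0.57 (adjusted p = 0.518) and CCR6 -0.37 ± 0.32 (adjusted p = 0.611). CCR6 was lower in KY1005.Siro.F than in KY1005.Siro.D28 in all 4 animals sampled at both, by changes between -0.59 and -0.45. Tac.Mtx.F against Tac.Mtx.D14 also called 0 of 8, where 0.00631% of probe sets were called, and S1PR5 had 1.02 ± 0.69 (adjusted p = 0.925). The time course of KY1005.Siro (F minus D14) was also set against that of Auto (D100 minus D14). It called 0 of 8 genes and 0% of probe sets, with estimates of -2.12 ± 0.86 (adjusted p = 0.363) for S1PR5 and -1.78 ± 0.67 (adjusted p = 0.319) for CX3CR1.

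Comparisons between regimens turned on CXCR3, CXCR6 and CCR3. Against NoRx.F, all 3 were lower in KY1005.Siro.D14 and in Bela.Siro.F, and CXCR3 was lower in KY1005.F. CXCR3 was 7.62, 8.17, 7.31, 7.29 and 7.92 in KY1005.Siro.D14 (R.217 to R.221), 8.63 (R.206), 8.57 (R.211) and 8.16 (R.212) in KY1005.F and 9.74 (R.50), 9.45 (R.51), 9.78 (R.52) and 8.93 (R.53) in NoRx.F. None of the KY1005.F, KY1005.Siro.D14 or Bela.Siro.F arrays reached the lowest NoRx.F array. Its differences were -1.23 ± 0.33 (adjusted p = 0.0129) in KY1005.F, -2.02 ± 0.31 (adjusted p = 1.03e-06) in KY1005.Siro.D14 and -1.97 ± 0.28 (adjusted p = 1.24e-07) in Bela.Siro.F. Without R.212 the call of KY1005.F was lost (adjusted p = 0.0767). The other 2 held under every alternative run and without any single array. KY1005.F, KY1005.Siro.D14 and Bela.Siro.F share no batch with NoRx.F, so a fit of only the groups compared could not be run for them.

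CXCR6 was 5.96, 5.28, 4.50, 4.81 and 5.60 in KY1005.Siro.D14, against 7.51 (R.50), 7.53 (R.51), 6.41 (R.52) and 8.84 (R.53) in NoRx.F, with no overlap. It differed by -2.82 ± 0.72 (adjusted p = 0.00349) there and by -2.85 ± 0.65 (adjusted p = 0.000962) in Bela.Siro.F, where R.38 overlapped NoRx.F. CCR3 was 7.85, 5.55, 5.25, 5.44 and 6.68 in KY1005.Siro.D14, where R.217, at 7.85, lay inside the NoRx.F range of 7.35 to 8.54 and the other 4 lay below it. Its differences were -1.86 ± 0.66 (adjusted p = 0.0433) in KY1005.Siro.D14 and -2.39 ± 0.60 (adjusted p = 0.00275) in Bela.Siro.F, whose arrays, at 5.37 to 6.43, did not overlap NoRx.F. The CCR3 call of KY1005.Siro.D14 was lost without any of R.218, R.219, R.220, R.50, R.52 or R.53, with those arrays of high actin ratio left out and with no filter on low values, whereas both calls of CXCR6 and the Bela.Siro.F call of CCR3 held under every alternative run.

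In counts, KY1005.F called 1 of 8 against NoRx.F, where 8.74% of probe sets were called. KY1005.Siro.D14 called 3 (15.6% of probe sets) and Bela.Siro.F 3 (14%), while Siro.F (6.45%) and Tac.Mtx.F (5.18%) called none. These 5 comparisons share the 4 NoRx.F arrays. Siro.F had differences from NoRx.F of -0.75 ± 0.26 (adjusted p = 0.0686) for CXCR3 and -0.15 ± 0.62 (adjusted p = 0.935) for CXCR6. CCR7 was above NoRx.F in each of the 5, from 0.91 ± 0.54 (adjusted p = 0.348) in Tac.Mtx.F to 1.43 ± 0.56 (adjusted p = 0.0935) in KY1005.F, and none of these passed. In Tac.Mtx.F, CCR4 was 1.49 above NoRx.F, uncalled in the main fit. It was called under some alternatives and not under others, and without a batch term it was called at 1.43 (adjusted p = 0.0169). The days after transplant do not overlap between NoRx.F (6 to 12) and KY1005.F, KY1005.Siro.D14, Bela.Siro.F or Tac.Mtx.F. None of these groups shares a batch with NoRx.F.

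**Figure D4:**
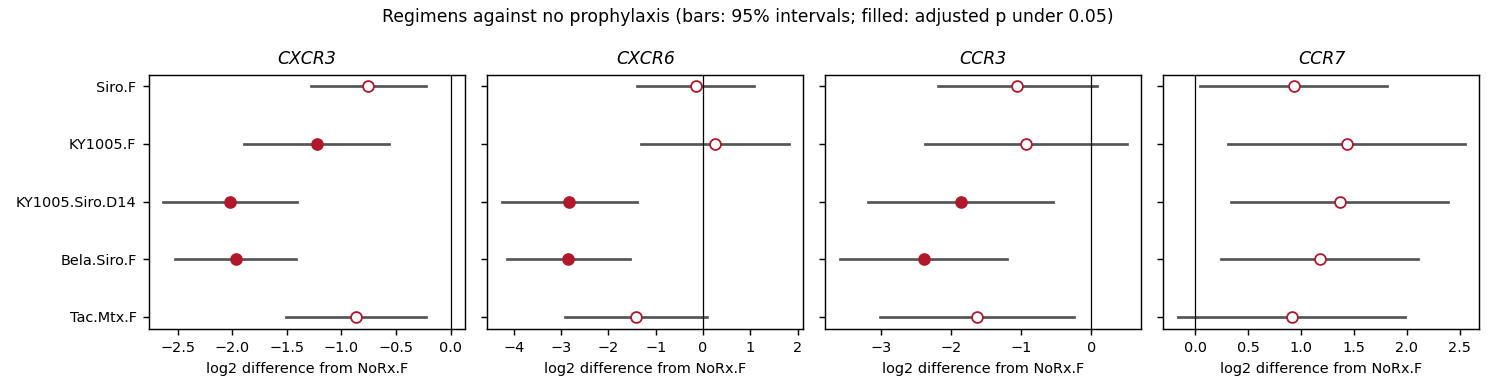
Log2 difference of CXCR3, CXCR6, CCR3 and CCR7 (horizontal axes) between each of 5 regimen groups (rows) and NoRx.F, with 95% intervals as bars and filled points where the adjusted p is under 0.05. The filled points are all below 0, in CXCR3 for 3 groups and in CXCR6 and CCR3 for KY1005.Siro.D14 and Bela.Siro.F, while the CCR7 points lie above 0 and are open.

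At day 14, KY1005.Siro.D14 was also set against Auto.D14, recipients of donor cells against recipients of their own. The same receptors were lower, CXCR3 at -1.22 ± 0.35 (adjusted p = 0.0254), CXCR6 at -2.39 ± 0.82 (adjusted p = 0.0498) and CCR3 at -2.45 ± 0.75 (adjusted p = 0.0324), 3 of 8 where 8.88% of probe sets were called. CXCR6 did not overlap, with 5.96, 5.28, 4.50, 4.81 and 5.60 in KY1005.Siro.D14 and 7.26, 6.13 and 7.42 in Auto.D14, whereas CXCR3 and CCR3 did. The groups share no batch, and the differences of the group means were smaller, at -0.77, -1.71 and -1.62. Without a batch term none of the 3 was called (adjusted p = 0.171, adjusted p = 0.181 and adjusted p = 0.177), nor with the actin ratio as a covariate, nor without the arrays of high actin ratio, which leave 1 Auto.D14 array. Of the 8 arrays, leaving out R.201 or R.202 of Auto.D14 or R.219 ended each of the 3 calls, leaving out R.220 also ended those of CXCR6 and CCR3, and leaving out R.200 or R.218 that of CXCR6. CXCR6 was also lost with no filter on low values (adjusted p = 0.0759), with the myeloid score as a covariate (adjusted p = 0.0524) and with the animal as a random replicate block, at -2.29 (adjusted p = 0.0551).

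Among other chemokine receptors, 6 of 16 listed genes were tested. CXCR4, the receptor of CXCL12, fell by 2.25 ± 0.46 (adjusted p = 0.000876) in Auto.D14 and by 1.57 ± 0.37 (adjusted p = 0.000518) in NoRx.F, the groups in which CCR7 fell. In Auto.D14, R.201 and R.202 had actin ratios of 3.30 and 3.38, and the CCR7 call was lost with that ratio as a covariate. The alternatives were run for the members alone, so the part of RNA quality in the CXCR4 fall was not tested. In Auto.D36, CCR2, the monocyte chemoattractant receptor, rose by 1.55 ± 0.40 (adjusted p = 0.00819) and CCRL2, an atypical receptor, by 1.56 ± 0.40 (adjusted p = 0.00669). CCRL2 rose by 1.43 ± 0.40 (adjusted p = 0.0038) in NoRx.F. CCR2 and CCRL2 had healthy means of 4.84 and 5.10, below the level of the filter, so these sizes may be understated. Both genes may also have passed the filter only through arrays where they are high, so their rises are not independent of it. ACKR1, the atypical receptor carried by red cells and venules, fell by 1.19 ± 0.33 (adjusted p = 0.0115) in Bela.Siro.F and by 2.15 ± 0.46 (adjusted p = 0.000987) in Tac.Mtx.F. In KY1005.Siro.F, CCR1 rose by 1.45 ± 0.25 (adjusted p = 2.99e-05), beside the myeloid and neutrophil genes given for CXCR3.

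Of 8 tested genes of tissue egress and lymph node entry, 4 fell and 1 rose in NoRx.F, where 27.5% of probe sets were called. In Bela.Siro.F (10% of probe sets called) 2 fell and 1 rose. In Siro.F (8.91%) and in Tac.Mtx.F (14.3%) 1 fell and 1 rose. In Auto.D14 (19.4%) 1 fell, and none was called in the other 10 groups. GPR183, which positions T cells along oxysterols, fell by 1.53 ± 0.30 (adjusted p = 2.59e-05). CD69, which holds T cells in tissue, fell by 0.95 ± 0.35 (adjusted p = 0.0343), and S1PR4 rose by 0.88 ± 0.16 (adjusted p = 8.25e-06). The median of the 8 in NoRx.F was -0.71, against 0.05 over all genes tested. In Bela.Siro.F, where S1PR5 also fell, S1PR4 rose by 0.39 ± 0.13 (adjusted p = 0.0385), FOXO1, a factor that maintains homing receptors, fell by 0.72 ± 0.23 (adjusted p = 0.028) and SGPL1, the lyase of sphingosine-1-phosphate, by 0.33 ± 0.11 (adjusted p = 0.0314). S1PR1 has no probe set of its own here.

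Of the ligand genes of the 8 receptors, 8 of 15 were tested. CCL5, a chemokine made by cytotoxic T cells and a ligand of CCR3, fell by 2.05 ± 0.44 (adjusted p = 0.000622) in Bela.Siro.F. In KY1005.Siro.D14 the CXCR3 ligand genes CXCL10 and CXCL11 rose by 1.41 ± 0.41 (adjusted p = 0.0314) and 0.42 ± 0.11 (adjusted p = 0.0197), and CCL20, the CCR6 ligand, by 0.99 ± 0.28 (adjusted p = 0.0263), beside 3 of 10 monocyte and myeloid genes. In that group 4.15% of probe sets were called. CXCL10 and CCL20 had healthy means of 4.24 and 4.93, below 5.21, the median of all values, so the sizes of these rises may be understated. Both genes may also have passed the filter only through arrays where they are high, so these rises are not independent of the filter. CXCL11 also rose in NoRx.F, by 0.38 ± 0.11 (adjusted p = 0.00718), and in KY1005.Siro.F, by 0.57 ± 0.12 (adjusted p = 0.00115).

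Transcription factors of effector and memory T cells were lower in Bela.Siro.F in 6 of 11 cases and higher in none, where 10% of probe sets were called. TBX21, the T-bet factor of type 1 and cytotoxic cells, fell by 1.54 ± 0.36 (adjusted p = 0.00186), ZEB2, which acts with it in terminal effector cells, by 1.59 ± 0.40 (adjusted p = 0.00486), and EOMES, a related T-box factor, by 1.06 ± 0.29 (adjusted p = 0.00893). Their list had a median difference of -0.89, against 0.04 over all genes tested. In NoRx.F, where 27.5% of probe sets were called, 5 of 11 fell, KLF7 by 1.98 ± 0.28 (adjusted p = 2.04e-08), KLF3 by 1.94 ± 0.22 (adjusted p = 1.63e-11) and ZEB2 by 1.71 ± 0.51 (adjusted p = 0.00669). In Auto.D100, where CX3CR1 and S1PR5 rose, PRDM1, the Blimp-1 factor, rose by 1.17 ± 0.34 (adjusted p = 0.0437) and TCF7, a factor of naive and memory cells, fell by 0.64 ± 0.19 (adjusted p = 0.0488).

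In the 45 healthy animals the 8 genes varied together in pairs. CCR7 had an SD of 0.73 and a range of 2.85, CXCR3 the smallest SD, 0.35, and CCR3 the widest range, 3.30. Over 28 pairs, 9 had a Pearson correlation that passed a two-sided permutation test of 100000 resamples after Benjamini-Hochberg adjustment. CCR4 and CCR6 had r = 0.773 and rho = 0.805 (permutation p = 1e-05 and p = 1e-05, adjusted p = 0.00028 and adjusted p = 0.00028), where 1e-05 is the smallest p these permutations can give. Their r was 0.732 without the 2 animals farthest from the median of the gene named first, the rule used for every pair. Within batches 2, 3, 4 and 6 it was 0.691, 0.867, 0.915 and 0.830. Batches 1 and 5 held fewer than 6 animals each.

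CX3CR1 and S1PR5 had r = 0.579 and rho = 0.580 (permutation p = 2e-05 and p = 4e-05, adjusted p = 0.00028 and adjusted p = 0.00056), and r = 0.542 without the 2 farthest animals. Within the 4 batches their r was 0.864, 0.959, -0.05 and 0.325, so the relation did not hold in every batch. CXCR3 and CXCR6 had r = 0.528 and rho = 0.542 (permutation p = 0.00017 and p = 6e-05, adjusted p = 0.00159 and adjusted p = 0.00056). Their r was 0.478 without the farthest animals and 0.657, 0.351, 0.765 and -0.03 in the batches. CCR7 and S1PR5 ran in opposite directions, with r = -0.470 and rho = -0.497 (permutation p = 0.00086 and p = 0.00051, adjusted p = 0.00602 and adjusted p = 0.00357). Without the 2 farthest animals r was -0.554, and in the batches it was -0.742, -0.645, -0.262 and 0.266, positive in the last.

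The other 5 pairs passed by r but not by rho. CCR7 and CCR4 had r = 0.461 and rho = 0.332 (permutation p = 0.00133 and p = 0.026, adjusted p = 0.00745 and adjusted p = 0.0911), r = 0.417 without the 2 farthest animals and 0.678, 0.117, 0.696 and 0.681 in the batches. CXCR6 and CX3CR1 had r = 0.428 and rho = 0.291 (permutation p = 0.00322 and p = 0.0512, adjusted p = 0.015 and adjusted p = 0.12), r = 0.431 without the 2 farthest and 0.474, 0.477, 0.576 and 0.370 in the batches. CXCR6 and S1PR5 had r = 0.420 and rho = 0.344 (permutation p = 0.00383 and p = 0.0218, adjusted p = 0.0153 and adjusted p = 0.0909), r = 0.473 without the 2 farthest and 0.425, 0.558, 0.264 and -0.02 in the batches. Those 3 relations were positive in every batch except CXCR6 and S1PR5 in batch 6. CCR3 and CCR4 had r = -0.376 and rho = -0.318 (permutation p = 0.0105 and p = 0.033, adjusted p = 0.0367 and adjusted p = 0.103) and -0.787, -0.05, -0.06 and -0.226 in the batches. CCR3 and S1PR5 had r = 0.365 and rho = 0.343 (permutation p = 0.0143 and p = 0.0227, adjusted p = 0.0445 and adjusted p = 0.0909) and 0.800, -0.254, 0.854 and -0.603 in the batches. Neither passed without the 2 animals farthest from the median of CCR3, where r kept its sign at -0.228 and 0.252 (permutation test, adjusted p = 0.273 and adjusted p = 0.237).

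**Figure D5:**
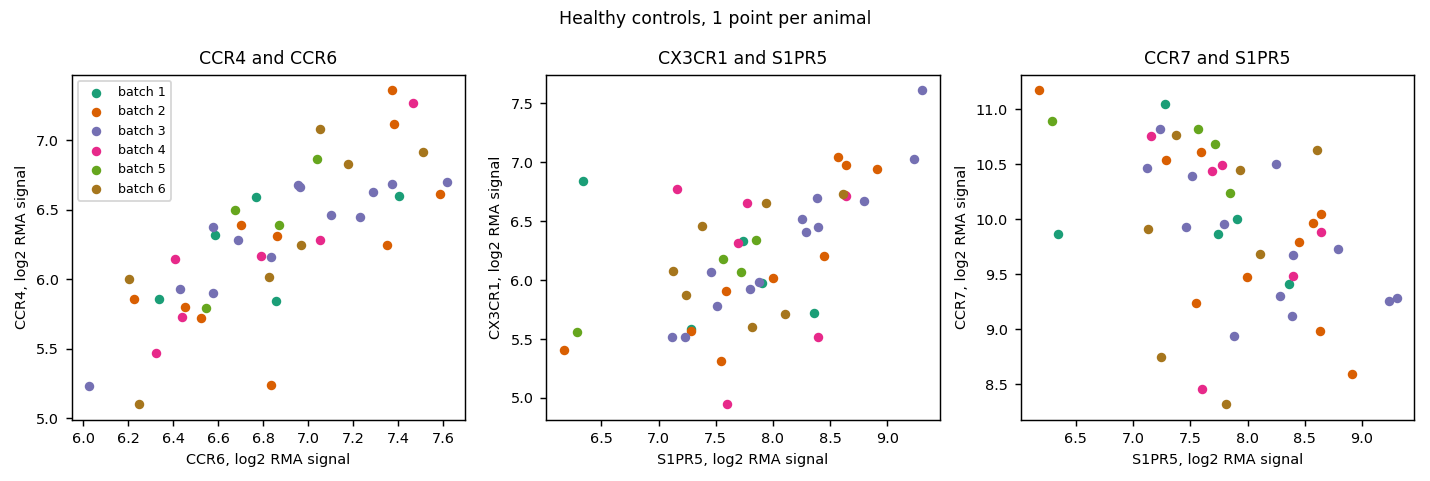
Log2 RMA signals of CCR4 against CCR6, CX3CR1 against S1PR5 and CCR7 against S1PR5 in 45 healthy animals, 1 point per animal, coloured by labelled batch. CCR4 and CCR6 rise together in every batch of 6 or more animals, CX3CR1 and S1PR5 most clearly in batches 2 and 3, and CCR7 is lower where S1PR5 is higher in batches 2, 3 and 4.

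The genes most like each receptor were those with the highest Pearson r over the 45 healthy arrays among 10717 genes, a description over arrays that share a platform and processing. CCR7 was most like TNFSF8 (r = 0.846), MYC (r = 0.811) and ZNF766 (r = 0.798). S1PR5 was most like TBX21 (r = 0.920), CCL4L1 (r = 0.913) and GZMB (r = 0.906), of which TBX21 encodes T-bet and GZMB granzyme B, a protease of cytotoxic granules. CX3CR1 was most like GPR141 (r = 0.777), HYCC1 (r = 0.748) and RUNX3 (r = 0.735). Over the 56 transplant arrays S1PR5 had r = 0.858 with TBX21, 0.651 with CCL4L1 and 0.585 with GZMB, CX3CR1 had 0.818, 0.544 and 0.846 with its 3, and CCR7 had 0.739, 0.745 and 0.603.

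For CCR4 the nearest genes were TNFSF10 (r = 0.796), ITGB1 (r = 0.779), an integrin chain of memory cells, and CCR6 (r = 0.773), and for CCR6 they were CCR4, VIM (r = 0.742) and SAMSN1 (r = 0.721). CXCR6 was nearest to GPR18 (r = 0.733), TMEM140 (r = 0.718) and EOMES (r = 0.704). Over the transplant arrays the r of CCR4 was 0.309, 0.477 and 0.624, that of CCR6 with VIM and SAMSN1 0.190 and 0.306, and that of CXCR6 0.615, 0.291 and 0.611. CXCR3 was nearest to ST14 (r = 0.728), DOCK9 (r = 0.680) and RNF214 (r = 0.676), and over the 56 transplant arrays its r with them was 0.0084, 0.035 and 0.589. CCR3 had the weakest neighbours of the 8, BLVRB (r = 0.623), PYCARD (r = 0.569) and STARD5 (r = 0.551), with 0.281, 0.460 and 0.553 over the transplant arrays.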

How the data were processed

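T cells labelled CD3 were measured on Affymetrix rhesus arrays. The deposited values are log2 signals that the authors computed with RMA in affy, per the submitters' processing notes, with versions not given in the sources used here. The healthy arrays appeared already adjusted for batch: a test of batch among them gave p under 0.05 for 0.274% of probe sets and over 0.95 for 24.9%. From the deposited table, 99 control probe sets were left out, and the 2 healthy arrays of animal R.201 were averaged, leaving 101 arrays. The 31711 probe sets (10718 genes) that reached 5.21, the table's median, on 3 or more arrays were tested. Of the 52865 probe sets 24969 had 1 gene symbol, 361 several and 27535 none, and all 8 members matched RefSeq gene names. limma 3.58.1 in R 4.3.3 fitted group plus labelled batch, with Benjamini-Hochberg adjustment at 0.05, and was tested on simulated data. Same-numbered arrays come from the same animal, and their residuals had a median correlation of 0.184 over 51 pairs. Where nothing pairs samples, p-values measure the spread between these arrays. Beyond the members, the text names up to 3 genes per list and comparison, those past the threshold with the largest change, genes of marker lists, and the 3 genes most correlated with each member. The members and lists were chosen with earlier results of these data known. Alternatives covered the batch term, the samples fitted, the filter, further normalization, the animal as a replicate block, array weights, RNA quality, a myeloid score and leaving out each transplant array.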

Additional observations from a re-analysis of the deposited data

Results flagged for a closer look

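In groups of 4 to 10 animals, an array was marked where its gap to the nearest other array took an unusually large share of the group's range, which chance gives in about 1 of 20 groups, and 5 of the 64 gene and group combinations tested were marked. CXCR3 of R.67 in Bela.Siro.F was 8.3863, above the other 6 animals at 7.25 to 7.58. CXCR6 of R.38 in Bela.Siro.F was 6.9886, above the others at 4.48 to 5.32. CCR6 of R.217 in KY1005.Siro.D14 was 7.9573, above the others at 6.28 to 6.74. In KY1005.Siro.F, CX3CR1 of R.217 was 6.7726 and S1PR5 of R.217 was 8.2584, above the others at 5.39 to 5.44 and 5.31 to 5.67. The myeloid score of that array was -0.77, against 2.58 to 3.98 in the other 3 of its group, and its part in the values was not tested. CX3CR1 differed between time points after autologous transplantation, Auto.D100 exceeding Auto.D14 by 1.9274 on the log2 scale, a difference tested in the limma fit.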

How the results depend on the processing

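Of the 29 calls, 14 held under all other processing settings, 10 held also without any single array, and none reversed. Against healthy controls CCR7 was called in 2 groups, but in 1 without a batch term, without the arrays of high actin ratio or with that ratio as a covariate. CXCR6, called in 1 group, was called in 5 without a batch term, 3 within the group's own batches, 5 with only the groups compared, 4 after further quantile normalization, 6 with array weights and 4 with the actin covariate. Array weights also gave 8 groups for CXCR3 (4 before), 5 for CCR3 (3 before) and 6 for CCR4 (2 before), 17 calls between transplant groups (11 before) and 2 for the difference of time courses (0 before). CCR4 had 0 with the myeloid covariate. Fitting only the groups compared left 0 of 1 call over the 5 comparisons it could be run for, and the animal as a fixed replicate block left 0 of 1 over 4. The random replicate block gave 17 calls against healthy controls and 10 between transplant groups, lost 2 and gained 0, and changed no other call. Of the correlated pairs, 9 in all, 1, 2, 0 and 0 passed within batches 2, 3, 4 and 6 alone, with fewer animals, and 7 without the 2 farthest animals. Without 1 array, the groups called numbered 1 to 2 for CCR7, 3 to 7 for CXCR3, 1 to 6 for CXCR6, 2 to 3 for CCR3, 1 to 2 for CCR4, 0 for CCR6, 2 to 3 for CX3CR1 and 2 to 5 for S1PR5. Calls between transplant groups numbered 7 to 13, and those for the difference of time courses 0 to 1. CCR7 had 1 without R.202 of Auto.D14, CXCR3 7 without R.67 of Bela.Siro.F, CXCR6 6 without R.13 of Siro.F and 5 without R.42 or R.49 of Bela.Siro.D14, and S1PR5 5 without R.16 of Siro.F. CCR4 had 1 without R.52 or R.53 of NoRx.F, or R.49, R.66 or R.70 of Bela.Siro.F. The 7 calls between transplant groups came without R.201 or R.202 of Auto.D14 or R.219 of KY1005.Siro.D14, and the 1 for time courses without R.200 of Auto.D14. Leaving out each Bela.Siro.F array was chosen after seeing the data, and the causes of these moves were not tested. Groups of 2 to 7 arrays, and probe sets near the lower end of the signal range, limit what could be detected.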
